A study of Mus musculus with 13 samples.

Results

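A set of 35 imprinted genes was examined in RNA-seq counts of mouse ES cells in which a phosphomimetic form of the insulator protein CTCF was induced. The set was chosen by gene symbol from domains in which expression depends on the parent of origin, including those whose control regions bind CTCF, and all 35 genes were found among the 24421 genes counted. Each had at least 1 read and so was among the 20044 genes tested, and 33 averaged 1 CPM or more (read counts scaled to library size, here by TMM, which sets the scale by the bulk of genes). The cells were F1-2.1, a female ES cell line from a CAST/Ei x 129/Sv/Jae cross with the genotype Tet-on CTCF S224E, in which a serine that can be phosphorylated is replaced by the acidic glutamate. All 4 libraries came from clone A2, grown over irradiated fibroblast feeders in medium with serum and LIF. The +dox group held 2 libraries of cells given doxycycline (dox) at 1 μg/mL for 6 days, and the −dox group held 2 libraries of the same clone without dox. Endogenous CTCF was present in both groups, and the vector makes EGFP together with the transgene. Libraries of dox-treated cells without the transgene were not analysed here, so the effects of dox, of EGFP and of the S224E protein cannot be told apart.

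At an imprinted gene 1 parental copy is expressed and the other is silent, according to a DNA methylation mark set in egg or sperm and carried by an imprinting control region. At the Igf2/H19 domain CTCF binds the unmethylated maternal control region and insulates Igf2 from shared enhancers, while methylation keeps CTCF off the paternal copy. In other domains a long noncoding RNA such as Kcnq1ot1 or Airn silences neighbours on its own chromosome. ES cells in culture can lose or gain such marks, and the total counts used here do not separate the 2 alleles of the cross.

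Matches to a core of CTCF letters at the Igf2/H19 control region are shown first, because this is the region for which the role of CTCF in imprinting is best known. The search used the core CGNGGNGGC, or GCCNCCNCG on the opposite strand, in the 5000 bases before each gene's start in the mm9 (NCBIM37) reference. This core was written from letters shared by the CTCF sites of the H19 control region, so matches at H19 follow from that choice. A site that differs from the core in any of its fixed letters is missed. H19 (chr7:149761435-149764051, minus strand) held 3 matches, at 2165, 2620 and 3890 bases before its start. They are printed on the minus strand, which is the strand of H19, with the core in capitals and 20 bases on each side.

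H19 site at chr7:149766196-149766244: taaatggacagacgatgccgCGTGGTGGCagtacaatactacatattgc
H19 site at chr7:149766651-149766699: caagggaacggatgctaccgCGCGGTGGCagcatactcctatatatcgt
H19 site at chr7:149767921-149767969: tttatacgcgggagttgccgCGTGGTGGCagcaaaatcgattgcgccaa

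Between these 3 sites 18 positions of a stretch of 24 bases were identical, which reads GNTNCCGCGNGGTGGCAGNANANT with N where the sites differ. The fixed letters of the core are among the 18, because the search required them. As background, 7918 of 24338 genes with such a window (32.5%) held at least 1 match, and 793 (3.26%) held 3 or more. Among the imprinted genes 7 of 35 (20.0%) held a match, with 4 each at Igf2 and Cdkn1c, 3 at H19, 2 at Trappc9 and 1 each at Mest, Phlda2 and Ube3a. Nnat, which fell with dox, held none. Cdkn1c (chr7:150644244-150646955, minus strand) was picked for display because it rose with dox. Of its 4 matches, those at 4178 and 4192 bases before the start lay close together. The matches nearest to the start lay 98 and 347 bases before it and are shown in the same way. Neither holds the letters GGTGGCAG that the H19 sites share.

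Cdkn1c site at chr7:150647033-150647081: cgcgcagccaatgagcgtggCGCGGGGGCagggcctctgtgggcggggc
Cdkn1c site at chr7:150647282-150647330: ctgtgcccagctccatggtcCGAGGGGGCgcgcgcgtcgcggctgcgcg

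A match here is a run of letters, and binding in these cells was not analysed here.

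Of the 35 imprinted genes, 2 passed edgeR's quasi-likelihood test over all genes at an adjusted p under 0.01. Cdkn1c, which encodes a cyclin-dependent kinase inhibitor that restrains growth, rose 2.06-fold with dox, and Nnat, which encodes the small membrane protein neuronatin of developing brain and endocrine cells, fell to a 3.47-fold lower level. Cdkn1c is expressed from the maternal copy and Nnat from the paternal copy. The 1 gene higher with dox stands beside 0.0798% of all genes tested (16 of 20044) and the 1 gene lower beside 0.519% (104). DESeq2 called the same 2 genes, beside 0.589% of all genes higher and 1.28% lower. The median log2 fold change was 0.07 over the 35 genes and 0.01 over all genes. For the 33 genes averaging 1 CPM or more it was 0.06, against −0.00 for the 13911 such genes in the table. Within the deposited tables, each of which holds 1 +dox and 1 −dox library, 12 of these 33 genes were higher with dox in both, 11 were lower in both and 10 went opposite ways. Over the 13911 genes at that level the counts were 4734, 4960 and 4217, so the imprinted genes split much as all genes did. Libraries share a table by replicate number only, and the test did not treat these numbers as a pairing. Ratios within a replicate thus depend on that matching of libraries. Both +dox libraries lay above both −dox libraries at 9 of the 33 genes, beside 26.1% of all genes at that level, and below them at 6, beside 27.7%. The first share was near the background and the second was under it. Without the +dox library of replicate 1, which stands apart as described below, 7 imprinted genes were called beside 5.07% of all genes, and without that of replicate 2 there were 6 beside 4.43%. In those fits the lone +dox library was assumed to vary like the −dox libraries, and Cdkn1c and Nnat were called in both. The imprinted genes took between 0.359% and 0.407% of the counted reads of each library.

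**Figure D1:**
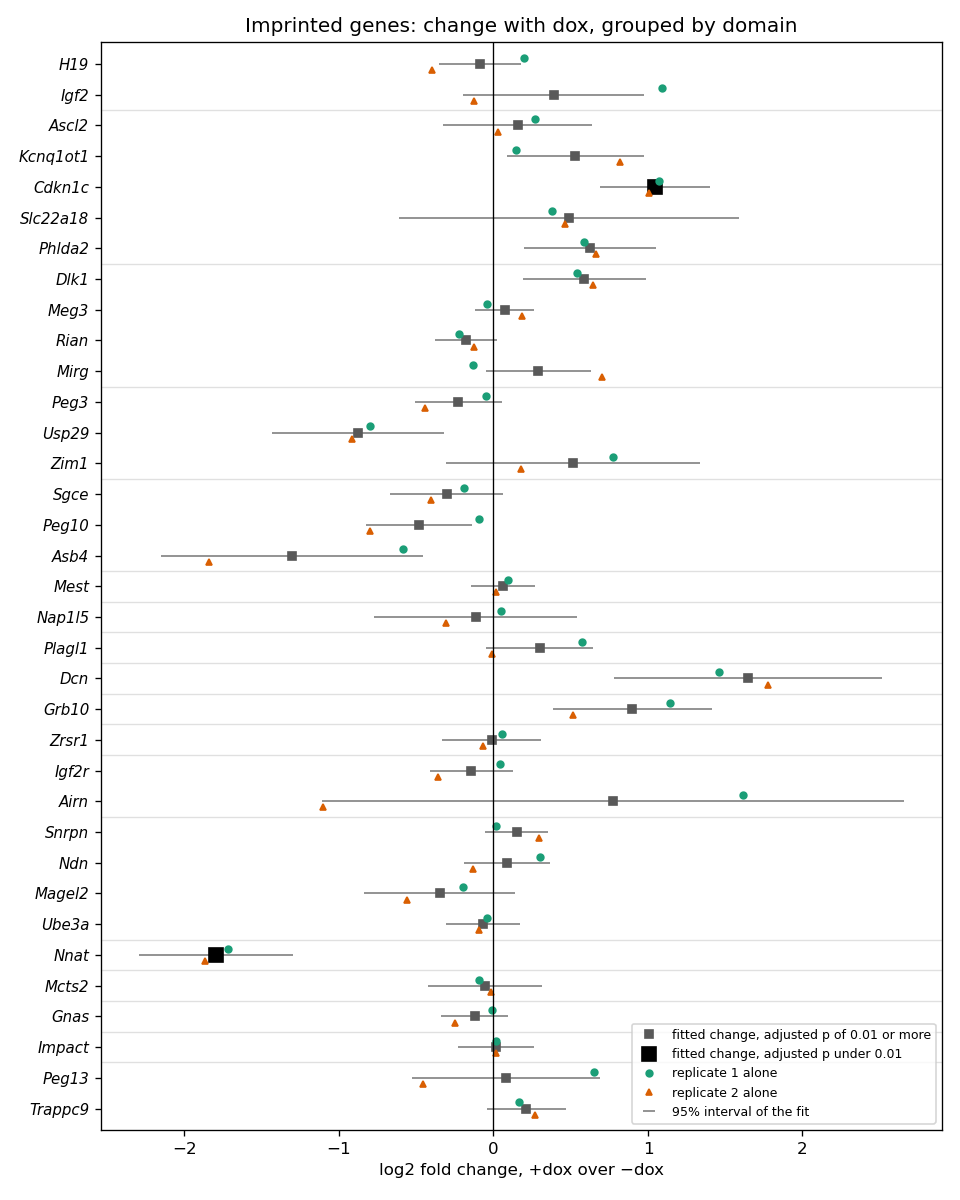
Change with dox of the 35 imprinted genes, grouped by domain, as log2 fold change of +dox over −dox (horizontal axis). Squares are the fitted changes with their 95% intervals, larger and black where the adjusted p was under 0.01, and circles and triangles are the log2 ratios of replicates 1 and 2 alone. Cdkn1c at 1.05 and Nnat at −1.80 are the 2 genes called, and at both the replicates lie close together.

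The libraries held 22899107 and 23136603 counted reads with dox and 30206085 and 24620964 without. ES cell markers were high in every library, with Pou5f1 at 1148 and 1254 CPM with dox and 949 and 1016 without, and Nanog, Sox2 and Zfp42 each between 407 and 829.8 CPM. Neither edgeR nor DESeq2 called any of the 10 ES cell markers, of which 5 had an unadjusted p under 0.05, as did 3566 of the 20044 genes tested. Their median log2 fold change was 0.23. With dox 7 of the 10 were higher in both tables and 1 lower, beside 4734 and 4960 of the 13911 genes averaging 1 CPM or more. Ctcf, the gene of the transgene, was counted at 327 and 329 CPM with dox and 295 and 304 without (log2 fold change 0.13, SE 0.09, adjusted p = 0.475 by edgeR), and these counts do not separate transgene from endogenous reads. The +dox library of replicate 1 stood apart in fibroblast (feeder) markers, whose 30 genes summed to 5324 CPM there, against 2623 in the other +dox library and 2370 and 2650 in the −dox libraries. Col1a1 was at 247 CPM in that library and between 66.6 and 94.9 in the others. Genes of chromosome Y, which the female line lacks, had 236 reads in it and between 67 and 76 in the others. Markers of the primitive streak, the first step of ES cell differentiation toward mesoderm, moved with the groups. Of 12 such genes 7 were called lower with dox (T, Mixl1, Eomes, Lhx1, Cer1, Fgf8 and Foxa2), and the list summed to 414 and 398 CPM with dox and 577 and 605 without. Of 12 trophoblast and extraembryonic endoderm markers tested, 4 were called lower (Krt8, Krt18, Gata6 and Sox17). The part of these cell types in the changes below was not tested, and in bulk RNA fewer cells of a type cannot be told apart from less RNA per cell.

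In the Igf2/H19 domain neither gene was called. H19, a maternally expressed long noncoding RNA, was at 311 and 240.1 CPM with dox and 271 and 316 without. The groups overlapped, with a log2 fold change of −0.09 (SE 0.12, 95% interval −0.36 to 0.18, edgeR adjusted p = 0.735). Igf2 (chr7:149836673-149844709, minus strand), the paternally expressed growth factor gene, was at 21.9 and 20.1 CPM with dox and 10.2 and 21.9 without. The −dox library of replicate 1 was the low one, and the other 3 lay close together. The log2 fold change of 0.39 (SE 0.27, 95% interval −0.20 to 0.98, adjusted p = 0.506) rested on that library, since it was −0.06 without it. H19 turned direction as well, to 0.08 without the +dox library of replicate 2 and to 0.02 without the −dox library of replicate 2. Per kilobase of counted exon, H19 RNA stood 25.1 and 21.1 times above Igf2 RNA with dox and 46.7 and 25.5 times above it without.

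The Kcnq1 domain held the gene that rose. Cdkn1c was at 24.7 and 23.1 CPM with dox and 11.7 and 11.4 without, a mean of 23.9 ± 1.18 against 11.6 ± 0.200 (SD, n = 2 each). Both +dox libraries lay above both −dox libraries, and the log2 ratios of the replicates were 1.07 and 1.01. The fitted log2 fold change was 1.05 (SE 0.16, 95% interval 0.69 to 1.40, edgeR adjusted p = 0.00577). Over the other settings and tools this adjusted p ran from 8.59e-06 to 0.0682. It missed the threshold without either −dox library, at 0.5496 and 0.670, where no gene of the whole table was called, while the log2 fold change stayed between 0.99 and 1.10 over the 4 libraries left out in turn.

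The 3 other genes of the domain that averaged 1 CPM or more were also higher with dox in both tables, without a call. So were 4734 of all 13911 genes at that level. Phlda2, a maternally expressed gene that limits placental growth, was at 15.5 and 13.2 CPM with dox and 10.3 and 8.33 without (log2 fold change 0.62, SE 0.20, adjusted p = 0.111). Kcnq1ot1, the paternally expressed noncoding RNA of the domain, was at 21.1 and 34.5 CPM with dox and 19.02 and 19.5 without (0.53, SE 0.20, adjusted p = 0.191). Replicate 2 carried most of this difference, with a log2 ratio of 0.82 against 0.15 in replicate 1, and without the +dox library of replicate 1 the gene was called at a log2 fold change of 0.84. Kcnq1ot1 lies within Kcnq1 and was counted over its whole span. The strand setting of the counting is not given, so whether reads of Kcnq1 are among its counts is not known. Ascl2, a transcription factor gene of the trophoblast, was between 6.06 and 7.64 CPM in all 4 libraries (adjusted p = 0.739). Slc22a18, a transporter gene, had only 13 to 17 reads per library, and its tables list different transcripts for it.

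**Figure D2:**
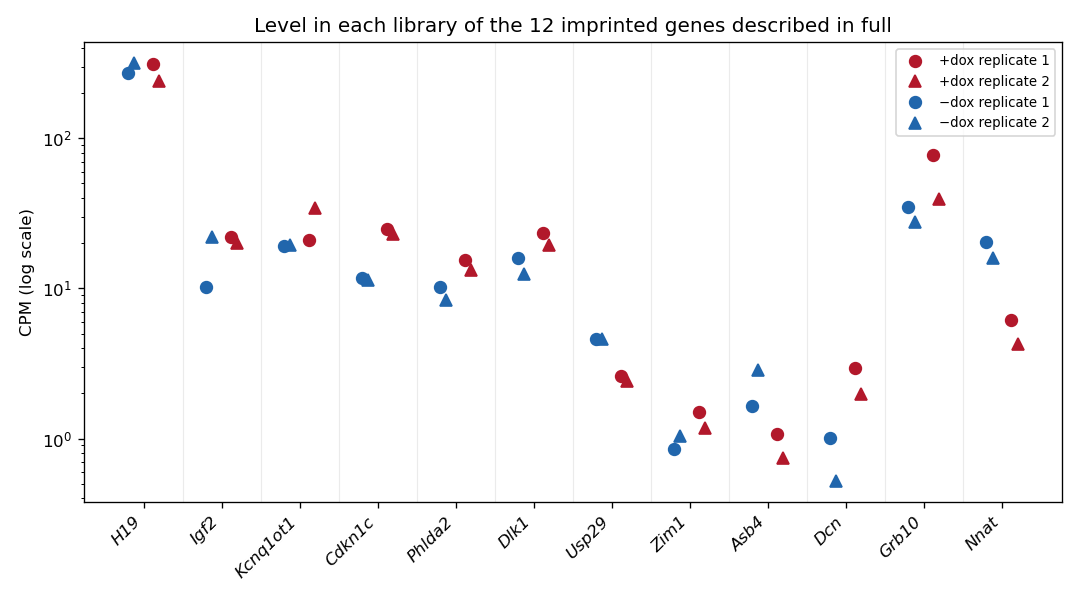
Level of the 12 imprinted genes described in full, in CPM on a log axis, in each of the 4 libraries. Red symbols are +dox and blue symbols −dox libraries, with circles for replicate 1 and triangles for replicate 2. Cdkn1c, Nnat and Usp29 show a gap between colours that is wide against the distance within each colour, though Usp29 was not called. H19 and Igf2 show overlapping colours.

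Nnat (chr2:157385814-157388261, plus strand) had the largest decrease of the 35 genes. It was at 6.17 and 4.29 CPM with dox and 20.5 and 15.9 without, a mean of 5.23 ± 1.33 against 18.2 ± 3.25 (SD, n = 2 each). Both +dox libraries lay below both −dox libraries, on 139 and 98 reads against 625 and 398. The log2 fold change was −1.80 (SE 0.23, 95% interval −2.29 to −1.30, edgeR adjusted p = 0.00185), with −1.72 in replicate 1 and −1.87 in replicate 2. Over the other settings and tools the adjusted p ran from 1.57e-08 to 0.0682. Without either −dox library it was 0.5496 and 0.670, and over the 4 libraries left out in turn the log2 fold change stayed between −2.08 and −1.56. Nnat lies within Blcap, which runs on the opposite strand, and 87 bases of its exons overlap the antisense gene AL672259.1. The strand setting of the counting is not given in the sources used here, so reads of the 2 strands cannot be told apart at that overlap. Both +dox libraries also lay below both −dox libraries at the 11 primitive streak markers averaging 1 CPM or more. The same held for 27.7% of all genes at that level. Any part of these cells in the fall of Nnat was not tested.

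In the Dlk1/Meg3 domain the paternally expressed Dlk1, which encodes a transmembrane protein related to Notch ligands, was at 23.3 and 19.5 CPM with dox and 16.0 and 12.4 without. Both +dox libraries were higher, with a log2 fold change of 0.59 (SE 0.18, 95% interval 0.19 to 0.98, adjusted p = 0.108). The maternally expressed noncoding RNAs of the domain are hosts of small RNAs and were far more abundant. Meg3 was between 419 and 477 CPM with overlapping groups (log2 fold change 0.07), and Rian was at 209 and 202 CPM with dox and 244 and 221 without (−0.18, adjusted p = 0.355). Mirg was at 74.0 and 102 CPM with dox and 81.2 and 62.8 without, with log2 ratios of −0.13 and 0.70 in the replicates. Meg3 RNA stood 7.25 and 9.25 times above Dlk1 RNA per kilobase with dox and 10.9 and 12.7 times above it without, so this ratio was lower in both +dox libraries. Of these genes Dlk1 was called without the +dox library of replicate 2 and Mirg without that of replicate 1.

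The Peg3 and Peg10 domains each have a pair of paternally expressed genes that start back to back over 1 control region, and their shared promoter stretches are shown because paired genes can be read against each other. The stretch between Sgce and Peg10 had 101 bases and 13 CpG, and that between Peg3 and Usp29 had 163 bases and 5 CpG. Both are printed on the plus strand with CpG in capitals, and neither held the CTCF core letters.

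Sgce to Peg10, chr6:4697205-4697305: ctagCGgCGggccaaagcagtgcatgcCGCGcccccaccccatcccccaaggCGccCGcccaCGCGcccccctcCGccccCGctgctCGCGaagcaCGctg
Peg3 to Usp29, chr7:6683131-6683293: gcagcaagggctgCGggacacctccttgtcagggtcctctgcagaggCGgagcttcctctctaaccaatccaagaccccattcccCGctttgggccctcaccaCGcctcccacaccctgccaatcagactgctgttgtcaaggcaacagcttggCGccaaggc

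Usp29, of the ubiquitin protease family, was at 2.62 and 2.41 CPM with dox and 4.62 and 4.62 without. Both +dox libraries lay below both −dox libraries, with a log2 fold change of −0.88 (SE 0.25, 95% interval −1.43 to −0.32, adjusted p = 0.0891). Peg3, a zinc finger gene and its partner at the promoter, was at 430.3 and 309 CPM with dox and 445 and 419.6 without (−0.23, adjusted p = 0.399). Its +dox library of replicate 2 was the low one, and without the +dox library of replicate 1 Peg3 was called at −0.49. Per kilobase, Peg3 RNA stood 187 and 146 times above Usp29 RNA with dox and 110 and 103 times above it without. The maternally expressed neighbour Zim1, another zinc finger gene, had only 26 to 34 reads per library, at 1.51 and 1.18 CPM with dox and 0.851 and 1.04 without (log2 fold change 0.52, SE 0.38, 95% interval −0.31 to 1.34, adjusted p = 0.538).

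All 3 genes of the Peg10 domain lay lower in both +dox libraries, and none was called. The same held for 27.7% of all genes averaging 1 CPM or more. Peg10, derived from a retrotransposon and needed in the placenta, was at 398 and 387 CPM with dox and 425 and 672 without. The −dox library of replicate 2 was the high one, and the log2 ratios were −0.09 and −0.80 (fitted −0.48, SE 0.16, 95% interval −0.82 to −0.14, adjusted p = 0.122). Sgce, which encodes epsilon-sarcoglycan and shares its promoter, was at 15.3 and 15.9 CPM with dox and 17.5 and 21.0 without (−0.30, adjusted p = 0.392). Asb4, an ankyrin repeat gene farther along the chromosome, was at 1.07 and 0.744 CPM with dox and 1.64 and 2.87 without, from 17 to 72 reads (−1.30, SE 0.39, 95% interval −2.15 to −0.45, adjusted p = 0.0987). Peg10 RNA per kilobase was 6.86 and 6.42 times Sgce RNA with dox and 6.41 and 8.42 times without, which overlapped. Without the +dox library of replicate 1 or 2 the log2 fold change of Peg10 was −0.51 and −0.46. Without the −dox library of replicate 1 it was −0.775, and without that of replicate 2 it was −0.115. Most of the fitted decrease thus rested on the −dox library of replicate 2. Peg10, like Sgce, Peg3, Meg3, Rian and Mirg, was followed with libraries left out only after its values were seen.

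**Figure D3:**
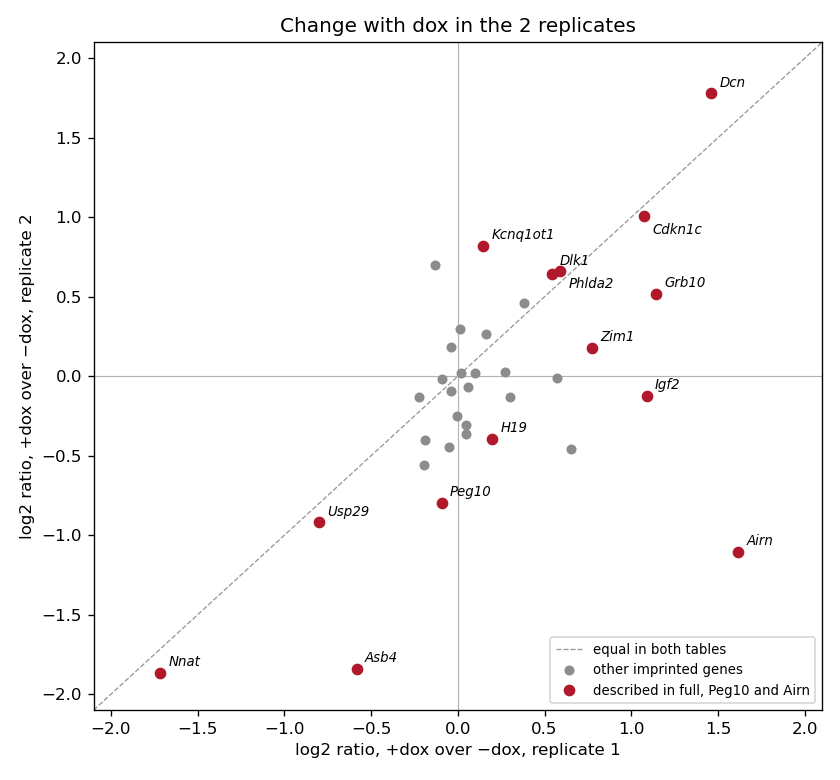
Log2 ratio of +dox over −dox in replicate 1 (horizontal axis) and in replicate 2 (vertical axis) for the 35 imprinted genes, with a dashed line where both are equal. Red points are the genes described in full, Peg10 and Airn, and grey points the others. Nnat and Cdkn1c lie near the dashed line, while Igf2 at 1.09 and −0.12 and Airn at 1.62 and −1.10 lie far from it.

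Dcn and Grb10, whose imprinting depends on the tissue, were higher with dox in both tables. Dcn, which encodes the connective tissue proteoglycan decorin, was at 2.93 and 1.97 CPM with dox and 1.01 and 0.518 without, from 13 to 66 reads. Both +dox libraries lay above both −dox libraries, with a log2 fold change of 1.65 (SE 0.40, 95% interval 0.78 to 2.52, adjusted p = 0.0477), above the threshold of 0.01. Without the +dox library of replicate 1, which had the highest fibroblast markers, it was 1.33 (adjusted p = 0.0439), and without that of replicate 2 Dcn was called at 1.90. Grb10, an adaptor of insulin and IGF receptor signalling, was at 76.9 and 39.6 CPM with dox and 34.7 and 27.7 without (log2 fold change 0.90, SE 0.24, 95% interval 0.39 to 1.41, adjusted p = 0.0657). The +dox library of replicate 1 stood out here, and without it the log2 fold change was 0.34 (adjusted p = 0.205), whereas without the +dox library of replicate 2 it was 1.30 and called. The 28 fibroblast markers averaging 1 CPM or more had a median log2 ratio of 1.60 in replicate 1 and 0.21 in replicate 2, where Dcn had 1.46 and 1.78 and Grb10 1.14 and 0.52. Neither tool called any of the 30 fibroblast markers, of which 23 had an unadjusted p under 0.05, and their part in the values of Dcn and Grb10 was not tested.

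None of the other imprinted genes was called or met the rule for a full description. In the Snrpn domain, Snrpn, a splicing gene, was at 518 and 545 CPM with dox and 513 and 444 without (log2 fold change 0.15), and Ndn, Magel2 and the ubiquitin ligase gene Ube3a lay at 0.09, −0.35 and −0.07. Magel2 was at 18.5 and 11.3 CPM with dox and 21.2 and 16.7 without, and was called without the +dox library of replicate 1. Igf2r, the receptor that clears IGF2, was between 119 and 158 CPM (−0.14). Its antisense silencer Airn had 15 and 2 reads with dox and 5 and 7 without, with a log2 fold change of 0.77 (95% interval −1.11 to 2.66) and replicates that went opposite ways. Plagl1, a zinc finger transcription factor gene, was at 44.7 CPM in the +dox library of replicate 1 and between 30.02 and 32.7 in the other 3. Trappc9, of vesicle transport, was at 61.6 and 58.2 CPM with dox and 55.0 and 48.3 without (0.21), and Peg13, the noncoding RNA inside it, ran from 3.73 to 5.98 CPM with replicates that went opposite ways. Gnas, the gene of a stimulatory G protein subunit, was between 296 and 357 CPM, Impact, a regulator of translation, between 251 and 304, and Mest, which encodes a hydrolase-like protein, between 204 and 233. Zrsr1, Mcts2 and Nap1l5, retrotransposed genes that lie inside other genes, were at 55.8 to 74.3, 13.8 to 14.9 and 1.88 to 2.71 CPM. In all of these the 95% interval of the log2 fold change included 0.

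Per kilobase of counted exon the imprinted genes covered a wide range of levels. Snrpn was highest, at a mean of 258 CPM per kilobase over the 4 libraries, followed by H19 at 125 and Gnas at 87.4, and the next were Mest at 81.3 and Impact at 81.1. Airn was lowest at 0.214, with Kcnq1ot1 at 0.282 over a counted length of 83436 bases and Zim1 at 0.328. Kcnq1ot1 was counted over its whole span and Airn over only 1396 bases of exon, so their levels are not alike in measure. The called genes were of middle level, with Cdkn1c at 12.4 with dox and 5.98 without, and Nnat at 4.21 with dox and 14.6 without. In this order Nnat was above Cdkn1c in both −dox libraries and below it in both +dox libraries.

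**Figure D4:**
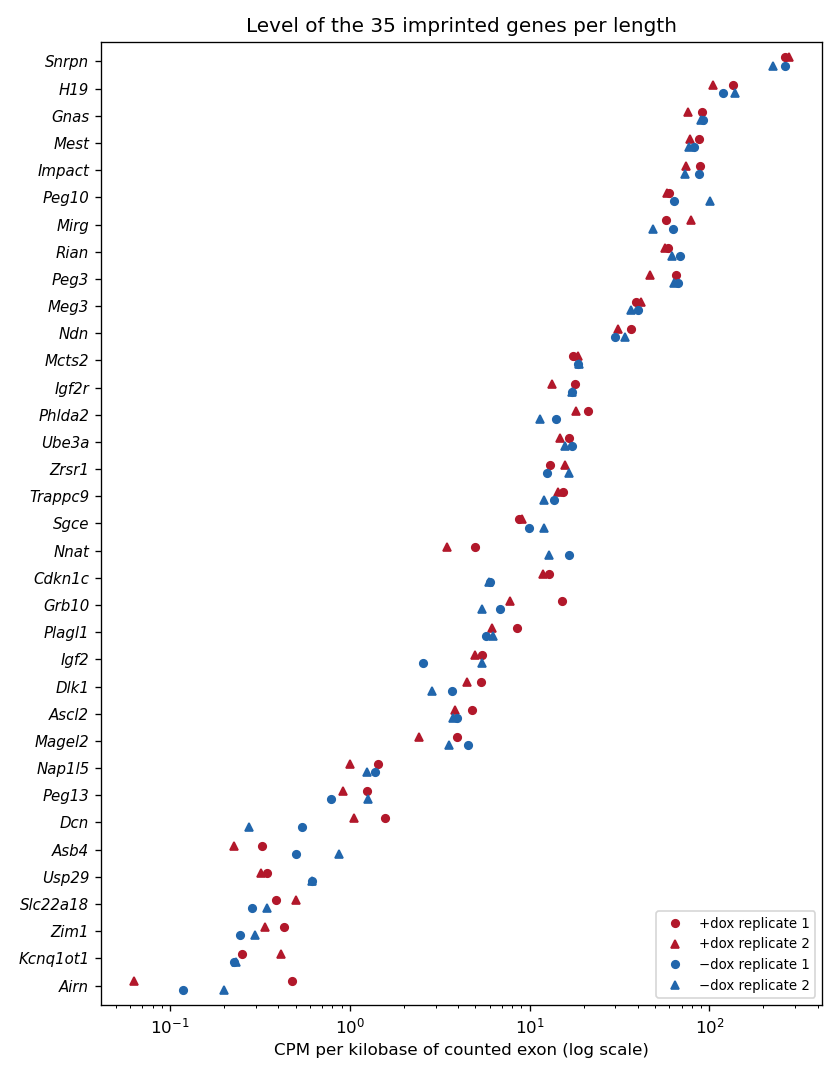
Level of the 35 imprinted genes in CPM per kilobase of counted exon (log axis), ordered by the mean over 4 libraries. Red symbols are +dox and blue symbols −dox libraries, with circles for replicate 1 and triangles for replicate 2. Levels run from a mean of 0.214 at Airn to 258 at Snrpn, and at most genes the colours overlap or lie close together.

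Of the 35 genes, 11 are known as maternally and 19 as paternally expressed, and at 5 the imprinting depends on the tissue. Among those averaging 1 CPM or more, 4 of 10 maternally expressed genes were higher with dox in both tables and 2 lower, and 5 of 18 paternally expressed genes were higher and 7 lower, beside 4734 higher and 4960 lower of all 13911 genes at that level. The difference between maternally and paternally expressed genes was not tested. The median log2 fold changes of these were 0.12 and 0.00, beside −0.00 over all genes at that level.

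A list of 46 other imprinted genes had 43 tested and none called by edgeR, with 14 at an unadjusted p under 0.05 beside 3566 of all 20044 genes tested. Their median log2 fold change was 0.18, and 0.10 for the 31 averaging 1 CPM or more. DESeq2 called 1 of them, Cd81 of the Kcnq1 region, at 193 and 195 CPM with dox and 143 and 146 without (log2 fold change 0.42, DESeq2 adjusted p = 0.00245, edgeR adjusted p = 0.0296). Of 26 factors that keep imprints or shape chromatin at them, none was called by edgeR, 7 had an unadjusted p under 0.05 beside the same 3566 of 20044, and their median log2 fold change was −0.03. DESeq2 called Trim28, the corepressor that protects imprint methylation, higher (log2 fold change 0.35, DESeq2 adjusted p = 0.00472), and Smchd1, a chromatin protein of imprinted and X-linked silencing, lower (−0.46, DESeq2 adjusted p = 0.00449). These 3 genes were chosen after their values were seen.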

How the data were processed

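Polyadenylated RNA of 2 +dox and 2 −dox cultures, called biological replicates in the study's methods, was analysed. The authors used cutadapt for trimming and TopHat2 for alignment to mm9, dropped duplicates and tabulated unique exonic reads per gene with HOMER, and the deposited values are raw counts, not normalized, in 1 table for each replicate. Versions and strand use are not given in the sources used here. Exons of Meg3, Mest, Gnas and Zrsr1, like those of Nnat, overlap exons of antisense genes. Tables were joined by symbol, and 547 genes carry different transcripts in them.

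The 20044 genes with 1 count or more in any library were tested with edgeR 4.0.16 (TMM, quasi-likelihood test, defaults, no replicate block) in R 4.3.3, with Benjamini-Hochberg adjustment over all genes and a threshold of 0.01. DESeq2 1.42.0 was the main alternative. Standard errors were taken from the F statistic, and log2 ratios within a replicate were computed with a prior count of 2. Scripts were tested on simulated data. Alternatives were other tests, scalings and filters, a replicate block, a threshold of 0.05 and each library left out in turn.

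The genes and lists were chosen with earlier results of these data known. Described in full are H19, Igf2, genes called by either tool, and genes of at least 1 CPM with a log2 change of at least 0.5 in size and 1 direction in both tables. Replicates differed beyond counting noise (chi-square per degree of freedom 19.2 with dox and 13.2 without). Same-numbered libraries correlated at 0.196 in their deviations, over 2 pairs only, so the numbers were not taken as a pairing. Kcnq1ot1 and Peg13 were placed by the coordinates in the counts, since the annotation (GENCODE vM1) does not list them under those names. The ChIP-seq and Hi-C samples were not analysed here.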

Additional observations from a re-analysis of the deposited data

How the results depend on the processing

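The count of 2 imprinted genes called was 2 with DESeq2, the likelihood ratio test, DESeq2's size factors, no filter and only genes whose transcript is the same in each table, 3 at a threshold of 0.05 (Dcn added), 1 (Nnat) with total counts, and 0 with deviances adjusted for small counts (3254 genes at an unadjusted p under 0.05, 9 of them imprinted) or with filterByExpr (3225 and 10). Over all genes the count of 120 became 375 with DESeq2, 457 with the likelihood ratio test, 573 at a threshold of 0.05, 0 with adjusted deviances and 11 with filterByExpr. With each library left out in turn, the lone library being assumed to vary like the other group, between 0 and 7 imprinted genes and between 0 and 992 of all genes were called, 0 without either −dox library (1753 and 1450 genes at an unadjusted p under 0.05). With libraries left out in turn the imprinted genes' median log2 fold change ran from −0.0286 (without the +dox library of replicate 1) to 0.12, that of H19 from −0.29 to 0.0847 and that of Igf2 from −0.0603 to 1.03, so both of these genes reversed. Cdkn1c missed the threshold at 0.0682 with adjusted deviances, 0.0273 with filterByExpr and 0.0110 with total counts, and Nnat at 0.0682 and 0.0235 with the first 2. The cause of these differences was not tested. With a replicate block, which the labels' numbers alone do not justify, 5 imprinted genes (Cdkn1c, Dcn and Grb10 higher, Nnat and Peg10 lower) and 786 of all genes were called. Depth limits Airn (2 to 15 reads a library) and Slc22a18 (13 to 17).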
